A study of Mus musculus with 6 samples.

Results

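The genes described here are the mitochondrial carriers of the Slc25a family and the protein import genes whose symbols begin with Timm or Tomm. They were chosen by symbol from the 7373 genes of the deposited table, in which 54 symbols had one of these beginnings. The choice excluded Slc25a37 by name and 3 genes listed at 0 in control 3, which left 50 genes: 29 carriers, 12 Timm genes and 9 Tomm genes. Timmdc1, a complex I assembly factor, was chosen by its symbol and is counted among the import genes. All 50 passed the low count filter of the test. Family members not listed in that table, such as Slc25a24 and Slc25a31, were not analysed here.

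Kidney RNA of 3 transgenic and 3 control samples was sequenced, all from adult male mice of the inbred strain FVB/N. The transgenic mice overexpressed CryAB, a small heat shock protein, carrying the R120G mutation, from an α-myosin heavy chain promoter that is active in heart muscle cells. They were taken before heart failure set in, and the controls were of the same age and sex. All 6 samples precede any ischemia-reperfusion injury, and the comparison shows kidney transcripts in a mouse whose transgene is driven in the heart. Halved whole kidneys were used, so cortex and medulla are mixed. The labels do not tie the samples to numbered animals, and the spread that p-values measure here may therefore be technical. In bulk tissue, fewer cells of a type and less RNA per cell cannot be told apart.

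Mitochondrial carriers are proteins of the inner mitochondrial membrane that exchange nucleotides, phosphate, carboxylates, amino acids and cofactors between the matrix and the cytosol. Almost all mitochondrial proteins are made in the cytosol: the TOM complex admits them through the outer membrane, small TIM chaperones guide hydrophobic ones across the intermembrane space, and the TIM22 and TIM23 complexes insert them into or pass them through the inner membrane. Carrier proteins themselves arrive by the TOM and TIM22 route. Tubule cells, above all those of the proximal tubule, are rich in mitochondria because sodium reabsorption consumes much ATP.

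Depth over the listed genes was between 23.5 and 47.6 M estimated counts per library, and the 50 genes took 0.675% to 0.729% of them, with 237.6 to 46191 counts per gene and library. Control 3 was the deepest library and stood apart: 178 genes were at 0 there, of which 176 were matched to chromosome X and 1 to Y, and it lay at 23.7 on a first principal component (53.5% of the variance) where the other 5 lay between -10.9 and 1.03. Markers of the proximal tubule, Lrp2, Slc34a1, Slc5a2, Slc22a6, Cubn and Slc5a12, were all present, and their summed level ran from 10745 to 11308 CPM in controls and from 10658 to 12008 in transgenic kidneys. CPM are the estimated counts scaled to the normalized size of each library. The summed level of 4 thick ascending limb markers was 2853 to 3366 CPM in controls and 2726 to 3037 in transgenic kidneys. That of 5 collecting duct markers was 846 to 934 and 730.4 to 852 CPM. In these lists and that of the proximal tubule no gene passed an adjusted p of 0.05 with edgeR. Of the proximal tubule markers 3 had a log2 fold change above 0 and 3 below. All 4 thick limb and all 5 collecting duct markers lay below 0. Without control 3, 1 of these 4 and 2 of these 5 lay above 0. No marker of the distal convoluted tubule (2 listed), endothelium (3), macrophages (4) or red blood cells (3) passed an adjusted p of 0.05 with edgeR. The log2 fold changes of the macrophage genes were -0.25 for C1qa, -0.22 for C1qb and C1qc and 0.04 for Csf1r. Without control 3 none of these lay above 0. Of the distal tubule genes 1 lay above and 1 below 0, and of the endothelium genes 1 above and 2 below. All 3 red cell genes had a log2 fold change below 0, and 2 of them, Hba-a2 and Hbb-bs, an unadjusted p under 0.05. Summed levels, controls first, overlapped between groups in each list. For the distal tubule they were 434 to 472 and 402 to 537 CPM, and for endothelium 137 to 201 and 140 to 151. For macrophages they were 90.5 to 123 and 99.7 to 114 CPM, and for red cells 532 to 925 and 499 to 757. Brown fat markers were not among the listed rows. Of 8 adipocyte markers 2 were listed. Fabp4 stood at 87.5, 178 and 122 CPM in controls and at 126, 99.1 and 126 in transgenic kidneys, and Cfd at 0.22, 77.2 and 0.04 and at 28.7, 6.87 and 18.3, so control 2 was highest in both. The part of any of these markers in the results below was not tested.

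Between the groups the carrier and import genes differed little. None of the 50 genes passed an adjusted p of 0.05 under edgeR's quasi-likelihood model, adjusted by Benjamini-Hochberg over 7194 genes (smallest adjusted p = 0.997), beside 1 gene in the whole table (0.0139%). At an unadjusted p under 0.05 the count was also 0 of 50, beside 131 of 7194 genes (1.82%). DESeq2 and limma on the authors' log2 values called 0 of 50 as well, each with 0 at an unadjusted p under 0.05. Limma voom with array weights called 0, with 2 at that level beside 634 of all 7194 genes. No gene of the 50 had all 3 transgenic values above all 3 control values (2.96% of all genes) or below them (3.02%). The log2 fold changes, transgenic minus control, lay between -0.30 and 0.29 with a median of 0.00, 27 above and 23 below 0; the median over all genes tested was also 0.00. The median size of the difference was 0.05 in these genes and 0.07 over all genes.

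A p that misses the threshold does not show equal levels, so the intervals of the differences are given. With 3 against 3 libraries the 95% intervals stayed within a 1.25-fold change in either direction for 27 of the 50 genes (43.4% of all genes tested) and within 1.5-fold for 45 of 50 (89.6% of all genes tested). The 5 others were Slc25a25, Slc25a22, Slc25a16, Tomm20 and Timm21. All 50 intervals stayed within 2-fold, as did 99.0% of all genes. The intervals rest on the spread between these libraries, which may be technical.

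**Figure D1:**
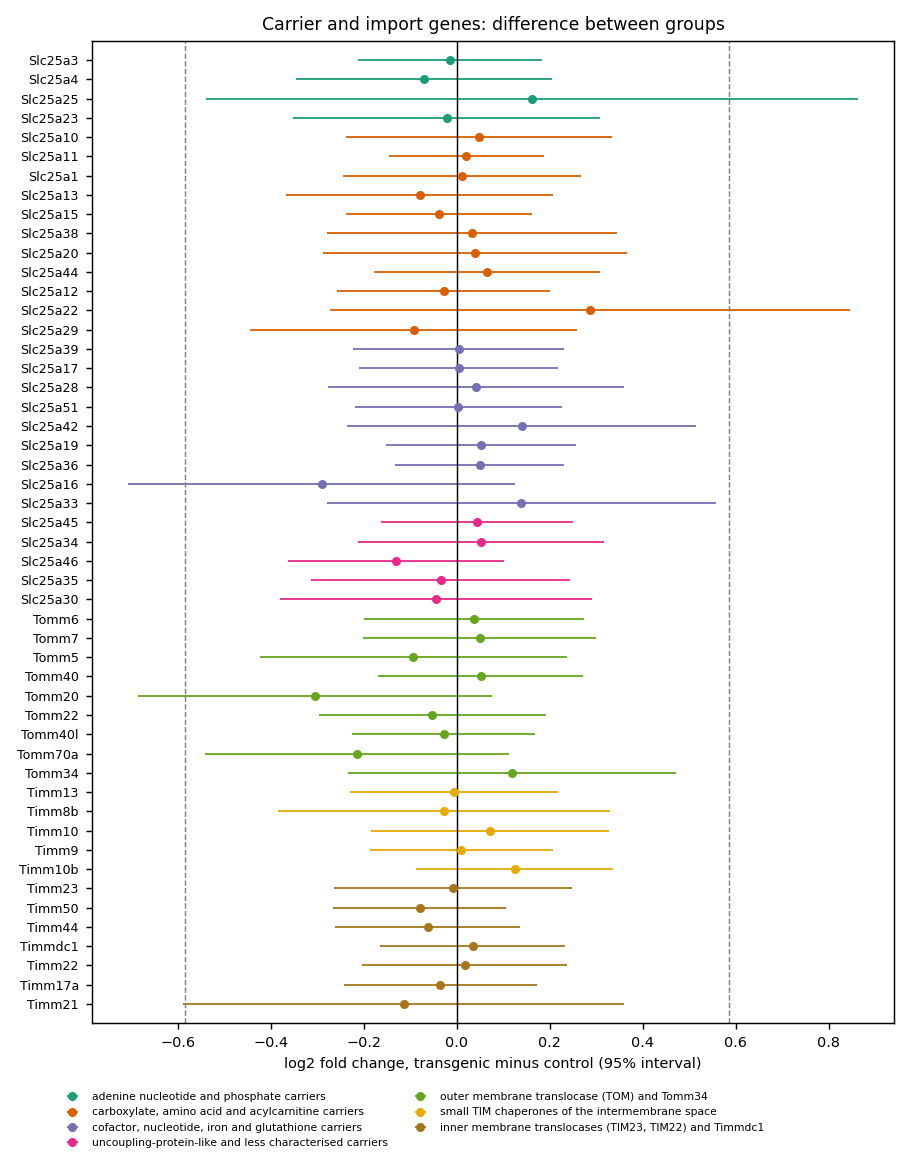
Log2 fold change between transgenic and control kidneys for each of the 50 genes, with its 95% interval from the edgeR fit (3 libraries per group), coloured by role; dashed lines mark a 1.5-fold change. All intervals cross 0, and 5 of them cross a dashed line.

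Levels were compared between genes per kilobase of transcript, as mean CPM per kb over the 6 kidneys. The length is that of the longest coding transcript of each gene, and levels and ratios per kb rest on that choice. Slc25a3, which imports the phosphate that ATP synthase uses, was the highest at 627 CPM per kb, followed by the glutathione carrier Slc25a39 at 583. Next came the dicarboxylate carrier Slc25a10 at 321 and a pair of small TIM chaperone genes, Timm13 at 233 and Timm8b at 226. At the other end stood Slc25a35, a carrier of uncertain substrate, at 4.84 and Slc25a30, first described as a kidney mitochondrial carrier, at 3.28 CPM per kb. Most neighbours in this order overlapped across kidneys. The neighbours that did not were Slc25a39 above Slc25a10, Slc25a10 above Timm13, Tomm5 above Timm50, Slc25a1 above Timm44, Slc25a36 above Timm22, Timm21 above Slc25a35 and Slc25a35 above Slc25a30.

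**Figure D2:**
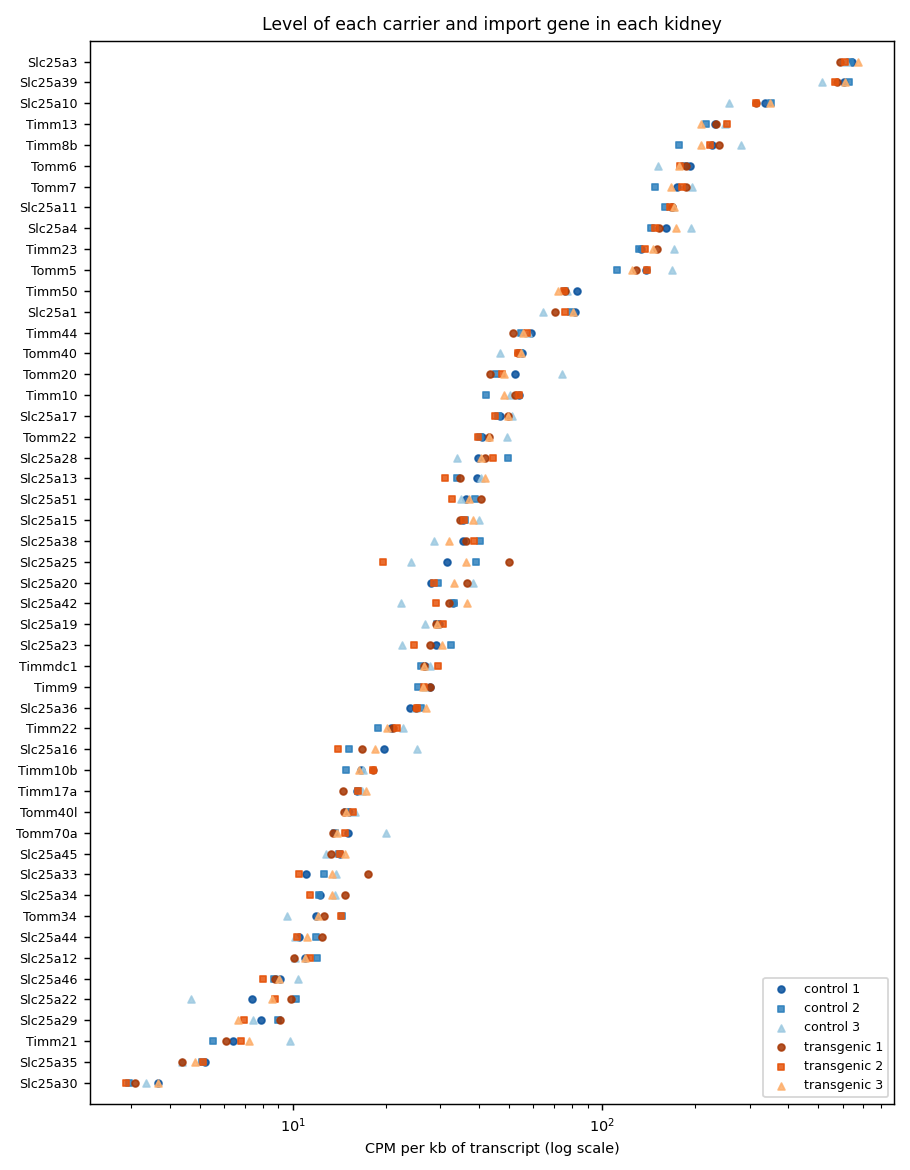
Level of each of the 50 genes in each of the 6 kidneys, in CPM per kb of transcript on a log scale, ordered by the mean. Levels span 3.28 to 627 CPM per kb, while the points of a gene lie close together; Slc25a25 and Slc25a22 spread the most.

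Adenine nucleotide and phosphate carriers supply ATP synthase and export its product. Slc25a3 (chr10:91116574-91124046, RefSeq on GRCm38.p6, the assembly called mm10) stood at 1034, 1021 and 993 CPM in controls 1, 2 and 3 and at 949, 986 and 1082 in transgenic kidneys 1, 2 and 3. The means were 1016 ± 21.0 and 1006 ± 68.9 CPM (SD, n = 3 each), and the log2 fold change was -0.01 ± 0.09 (SE). The groups overlapped, with the lowest and the highest kidney both transgenic. Slc25a4, which encodes the ADP/ATP carrier of heart and muscle, read 310, 278 and 372 CPM in controls and 294, 286 and 335 in transgenic kidneys (-0.07 ± 0.12). It is a close copy of Slc25a5, and how the authors' counting divided shared reads is not given in the sources used here.

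Slc25a25 and Slc25a23 encode calcium-regulated carriers that exchange ATP-Mg for phosphate. Slc25a25 (chr2:32414487-32451470) had the widest range of the 50 genes, 2.55-fold between its lowest and highest kidney. Its values were 111, 138 and 84.9 CPM in controls and 176, 69.3 and 128 in transgenic kidneys. Both extremes were transgenic, and the log2 fold change was 0.16 ± 0.31 (SE), with a 95% interval from -0.54 to 0.86. Slc25a23 read 97.6, 109 and 76.1 CPM in controls and 93.3, 83.0 and 102 in transgenic kidneys. The ratio of Slc25a23 to Slc25a25 per kb was 0.56 in transgenic kidney 1 and 1.26 in transgenic kidney 2, with the other 4 kidneys between them.

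The 3 genes left out for their zeros in control 3 are all on chromosome X and could be compared in 5 kidneys only, without a test. Slc25a5, which encodes the ADP/ATP carrier of most tissues, stood at 1246 and 1112 CPM in controls 1 and 2 and at 1214, 1101 and 1394 in transgenic kidneys. At 979 CPM per kb over these 5 kidneys it was above the highest of the 50 genes, and the mean of the transgenic kidneys was 1.05 times that of controls 1 and 2. Timm17b, of the TIM23 complex, read 44.98 and 38.1 CPM in those controls and 44.0, 40.1 and 40.2 in transgenic kidneys. Timm8a1, a small TIM chaperone gene, read 66.1 and 57.8 and then 63.2, 62.7 and 59.4 CPM. In each of the 3 genes the transgenic values overlapped those of controls 1 and 2. The excluded Slc25a37, which encodes the mitoferrin known from red cell precursors, was at 45.8, 46.8 and 39.8 CPM in controls and 49.6, 49.0 and 47.3 in transgenic kidneys (log2 fold change 0.14 ± 0.09, SE; adjusted p = 0.997, edgeR). Its groups did not overlap, as for 2.96% of all genes in this direction.

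Among 11 carriers of carboxylates, amino acids and acylcarnitine, 7 had a log2 fold change above 0 and 4 below, with a median of 0.02. Without control 3 the count above 0 was 5 and the median -0.03, and with a correction for GC content and length, added after seeing the data, the count was 3. Slc25a10, the dicarboxylate carrier known for high levels in kidney and liver, stood at 680, 712 and 521 CPM in controls and at 635, 638 and 706 in transgenic kidneys. The means were 638 ± 103 and 660 ± 40.5 CPM (SD, n = 3 each; log2 fold change 0.05 ± 0.13, SE). Control 3 was the lowest kidney, and without it the log2 fold change was -0.08. Slc25a11, the oxoglutarate/malate carrier of the malate-aspartate shuttle, was the steadiest of the 50 across kidneys, with a 1.07-fold range. It read 288, 273 and 291 CPM in controls and 289, 284 and 292 in transgenic kidneys, all 6 within a narrow band. Its 95% interval, -0.15 to 0.19 on the log2 scale, was among the narrowest.

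The shuttle is completed by the aspartate/glutamate exchange by aralar, encoded by Slc25a12, and citrin, encoded by Slc25a13. Slc25a13 stood at 123, 106 and 126 CPM in controls and at 109, 97.4 and 130 in transgenic kidneys. Slc25a12 stood at 69.5, 76.1 and 64.6 and at 64.0, 72.3 and 69.8. Per kb of the longest coding transcript (3121 and 6351 nt) Slc25a13 stood at 2.74 to 3.98 times Slc25a12. The ratio was lowest in transgenic kidney 2 and highest in control 3. Slc25a1, the citrate carrier, read 136, 133 and 107 CPM in controls and 117, 126 and 135 in transgenic kidneys. Slc25a20, which brings acylcarnitines in for fatty acid oxidation, read 49.9, 52.7 and 68.3 and then 65.3, 51.0 and 59.4 CPM. The ornithine carrier Slc25a15 read 122, 124 and 137 and then 119, 122 and 132 CPM. None of these separated the groups.

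Slc25a22, a glutamate carrier (chr7:141429749-141437874), had the highest fitted difference of the 50 genes and also the largest spread among controls. It stood at 20.7, 28.9 and 13.2 CPM in controls and at 27.7, 24.7 and 24.2 in transgenic kidneys, means of 21.0 ± 7.85 and 25.5 ± 1.91 (SD, n = 3 each). Control 3 was lowest and control 2 highest, with the transgenic kidneys between. The log2 fold change was 0.29 ± 0.24 (SE; adjusted p = 0.997, edgeR). It was 0.04 without control 3 and 0.60 without control 2, so these control kidneys decide its size.

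Of the 9 carriers of cofactors, nucleotides, iron and glutathione, 8 had a log2 fold change above 0 and 1 below, with a median of 0.04; without control 3 the count above 0 was 4 and the median -0.03. Slc25a39, the glutathione carrier, stood at 1020, 1057 and 864 CPM in controls and at 972, 953 and 1025 in transgenic kidneys (0.00 ± 0.10, SE). The lowest kidney was control 3, and the others overlapped. Slc25a17, the peroxisomal carrier of coenzyme A, FAD and NAD, read 80.4, 79.4 and 87.9 CPM in controls and 85.4, 77.6 and 85.6 in transgenic kidneys. Slc25a42, the mitochondrial coenzyme A carrier, read 106, 106 and 71.5 and then 102, 93.0 and 117 CPM (0.14 ± 0.16; -0.03 without control 3). Slc25a33, a pyrimidine nucleotide carrier, read 20.9, 23.9 and 26.1 and then 33.0, 19.8 and 25.2 CPM (0.14 ± 0.18; -0.07 without transgenic kidney 1). In both genes a single kidney sets the sign of the difference.

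Slc25a16 (chr10:62920632-62946494), a carrier linked to coenzyme A uptake, was the member of this group with a negative log2 fold change. It stood at 62.1, 47.99 and 79.3 CPM in controls and at 52.8, 44.0 and 58.1 in transgenic kidneys, means of 63.1 ± 15.7 and 51.6 ± 7.14 (SD, n = 3 each). Control 3 was highest and transgenic kidney 2 lowest. The log2 fold change was -0.29 ± 0.18 (SE; adjusted p = 0.997, edgeR) and was -0.09 without control 3. The 5 remaining carriers, uncoupling-protein-like or of less certain substrate, had differences between -0.13 and 0.05. The lowest was that of Slc25a46, an outer membrane protein of the family with a part in mitochondrial dynamics, at 39.7, 38.0 and 45.6 CPM in controls and 38.2, 35.0 and 39.5 in transgenic kidneys (-0.13 ± 0.10, SE). Slc25a45 and Slc25a34 led this group in level, at 13.9 and 12.9 CPM per kb, with differences of 0.04 and 0.05.

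The outer membrane translocase was represented by its channel gene Tomm40, the receptor genes Tomm20, Tomm22 and Tomm70a, the small subunit genes Tomm5, Tomm6 and Tomm7, the channel-like Tomm40l and the cytosolic co-chaperone gene Tomm34. Of these 9 genes 4 had a log2 fold change above 0 and 5 below, with a median of -0.03, and 3 were above 0 without control 3. Tomm20 (chr8:126930664-126945921), the receptor for presequences, had the smallest p of the 50 genes. It stood at 257, 223 and 364 CPM in controls and at 213, 233 and 237 in transgenic kidneys, means of 281 ± 73.8 and 228 ± 12.9 (SD, n = 3 each). Control 3 alone was far above the rest, and control 2 lay among the transgenic kidneys. The log2 fold change was -0.30 ± 0.17 (SE; adjusted p = 0.997, edgeR), and leaving out 1 kidney at a time moved it between -0.45 and -0.07, the latter without control 3.

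Tomm70a, the receptor that carrier precursors use, had the same shape: 90.2, 81.6 and 119 CPM in controls and 80.4, 87.8 and 83.0 in transgenic kidneys (-0.21 ± 0.14, SE; -0.04 without control 3). Tomm34 read 27.4, 33.2 and 22.1 CPM in controls and 29.03, 33.1 and 27.7 in transgenic kidneys (0.12 ± 0.15; -0.02 without control 3). Here control 3 was the lowest kidney. Tomm40 was at 91.0, 89.1 and 77.2 CPM in controls and at 88.2, 88.2 and 90.3 in transgenic kidneys. Tomm6 and Tomm7, which led the group in level at 179 and 176 CPM per kb, went opposite ways in control 3: Tomm6 was lowest there, at 114 CPM beside 133 to 144 in the other 5 kidneys, and Tomm7 highest, at 219 beside 167 to 211. Control 3 was the highest kidney in 6 and the lowest in 3 of these 9 genes. The ratio of Tomm40 to Tomm22 per kb was 0.95 in control 3 and 1.245 to 1.35 in the other 5 kidneys.

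The small TIM chaperones act in the intermembrane space as pairs, Timm9 with Timm10 and Timm8 proteins with Timm13. Of the 5 genes 3 had a log2 fold change above 0, and 5 without control 3, where the median was 0.10. Timm13 stood at 285, 265 and 306 CPM in controls and at 286, 311 and 257 in transgenic kidneys, and Timm8b at 117, 92.0 and 146 and at 124, 116 and 108. Per kb the ratio of Timm13 to Timm8b lay between 0.89 and 1.22, and that of Timm9 to Timm10 between 0.49 and 0.60. The former was lowest in control 3 and highest in control 2, the latter lowest in transgenic kidney 2 and highest in control 2. Timm10b, which joins the small TIMs to the TIM22 complex, had the smallest p among genes above 0: it read 54.5, 48.6 and 55.2 CPM in controls and 59.4, 59.6 and 53.7 in transgenic kidneys (0.12 ± 0.09, SE; adjusted p = 0.997, edgeR). The groups overlapped through transgenic kidney 3. Timm10 read 37.2, 29.2 and 34.9 and then 36.1, 37.1 and 33.2 CPM (0.07 ± 0.11).

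The inner membrane translocase genes were grouped with Timmdc1, a complex I assembly factor. These 7 genes had differences between -0.11 and 0.03, 2 above and 5 below 0, the highest being that of Timmdc1. Without control 3 the count above 0 was 4 of 7, and the median went from -0.04 to 0.06. Timm23, a core subunit of the presequence translocase, stood at 157, 155 and 200 CPM in controls and at 176, 161 and 172 in transgenic kidneys (-0.01 ± 0.11, SE; 0.12 without control 3). Timm50, the receptor of that complex, read 126, 115 and 117 CPM in controls and 115, 114 and 109 in transgenic kidneys (-0.08 ± 0.08). It came nearest to separating the groups, since its highest transgenic kidney, at 115.1 CPM, was just above its lowest control, at 114.98. Timm44, which ties the import motor to the channel, read 105, 98.2 and 104 and then 92.0, 102 and 99.5 CPM (-0.06 ± 0.09). Timm17a had the smallest spread among controls of all 50 genes, at 118, 119 and 122 CPM, beside 106, 119 and 126 in transgenic kidneys. Timm21, a low gene of the same complex, was highest in control 3 at 23.7 CPM, with 13.4 to 17.5 CPM in the other 5 kidneys.

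A range over all kidneys is never smaller than the difference of the group means, so the ranges are a description only. Between the lowest and highest kidney the median range was 1.27-fold over the 50 genes and 1.29-fold over all genes tested; 10 of the 50 spanned more than 1.5-fold and 16 less than 1.2-fold. The 50 genes were not moved together by kidney. The summed import genes were highest in control 3 (2478 CPM) and lowest in control 2 (2043 CPM), while the summed carriers were lowest in control 3 (4638 CPM) and highest in transgenic kidney 3 (5207 CPM). Genes of high level weigh most in such sums, among them Slc25a39 and Slc25a10, lowest in control 3, and Tomm20, highest there. Slc25a5 is not in the carrier sum. By gene, control 3 was lowest in 11 and highest in 6 carriers, and highest in 10 and lowest in 3 import genes. The ratio of the import sum to the carrier sum was 0.44, 0.40 and 0.53 in controls and 0.44, 0.47 and 0.41 in transgenic kidneys, so the extremes were both controls. Of the carriers 18 of 29 had a log2 fold change above 0, and 11 of 29 without control 3; of the import genes the counts were 9 and 12 of 21. Control 3 was the highest or lowest kidney in 60.0% of the 50 genes and in 67.4% of all genes tested.

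**Figure D3:**
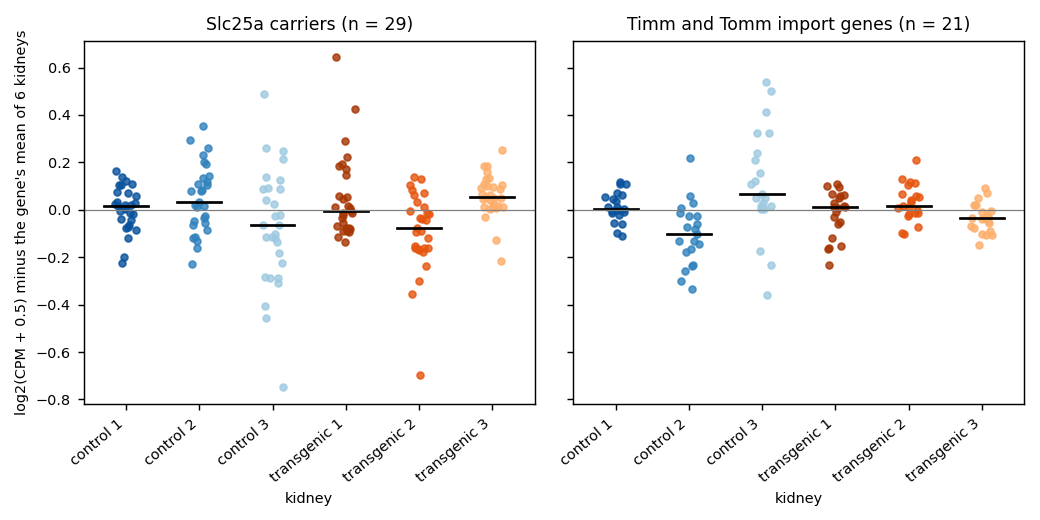
Deviation of each gene in each kidney from its own mean over the 6 kidneys, as log2(CPM + 0.5), for the 29 carriers and the 21 import genes; black lines are medians. Control 3 has the widest scatter in both panels, with its median at -0.06 for carriers and 0.07 for import genes, and control 2 lies low for import genes at -0.10.

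The deviation of control 3 moved with the GC content of the transcript. Among the 8 genes under 45% GC, control 3 lay above the mean of the other 5 kidneys in 7, by a median of 0.22 on the log2(CPM + 0.5) scale. Among the 15 genes at or above 55% GC it lay above in 3, with a median of -0.27. Genes between 45% and 50% (14) and between 50% and 55% (13) had medians of 0.15 and 0.03. All genes tested showed the same order, at 0.28, 0.10, -0.03 and -0.18 from the lowest to the highest range of GC. Across the 50 genes Pearson's r between GC content and the deviation from the gene's mean was -0.65 for control 3 and 0.57 for control 2. Over all 7129 genes with known GC content it was -0.52 and 0.30. A gene's deviations cancel out over the kidneys, so these values depend on each other. They are a description only, since the genes share each library and are not replicates.

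The genes with the largest fitted differences were among those with the largest deviations of control 3. That library is itself part of the control mean, so this match is partly built in. Tomm20 (45.1% GC) deviated by 0.65 there, Timm21 (41.8%) by 0.60, Slc25a16 (43.4%) by 0.59 and Tomm70a (40.7%) by 0.50. Slc25a22 (57.8%) deviated by -0.90, Slc25a42 (56.2%) by -0.55 and Tomm34 (55.6%) by -0.43. Timm10b and Slc25a33, named for small p among genes above 0, deviated there by 0.00 and 0.11, and without control 3 their log2 fold changes were 0.16 and 0.22. The median GC content was 53.8% in carriers and 49.7% in import genes. The correction for GC content and length left 25 genes above and 25 below 0 with a median of 0.00. With it the log2 fold change was -0.25 in Tomm20 (-0.30 before), -0.19 in Slc25a16 (-0.29) and -0.10 in Tomm70a (-0.21). It was 0.26 in Slc25a22 (0.29), 0.10 in Slc25a42 (0.14), 0.09 in Tomm34 (0.12) and 0.03 in Timm21 (-0.11). Whether GC content or another property of control 3 accounts for its deviations was not tested.

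**Figure D4:**
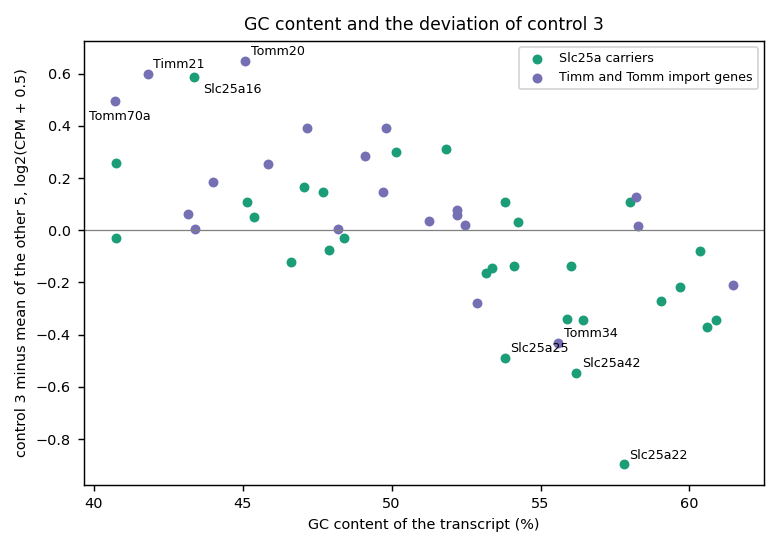
GC content of the transcript (x axis, %) and the deviation of control 3 from the mean of the other 5 kidneys (y axis, log2 scale) for the 50 genes, with 8 of the most deviating named. Genes of low GC content lie mostly above 0 and those of high GC content mostly below, with Slc25a22 lowest at -0.90.

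Genes that act beside the carriers and translocases were read from lists of the same pathways. With edgeR 0 of the 64 genes in 5 such lists passed an adjusted p of 0.05 (0.0139% of all genes), and 0 had an unadjusted p under 0.05 (1.82% of all genes). DESeq2 and limma voom called 0 as well, with 0 and 2 at an unadjusted p under 0.05. Over all genes limma voom had 634 of 7194 at that level. Of 16 genes for the import motor, precursor processing and folding, 5 had a log2 fold change above 0 and 11 below, with a median of -0.08, which was 0.02 without control 3. Hspa9, the matrix chaperone that pulls precursors in, stood at 718, 676 and 920 CPM in controls and at 671, 692 and 728 in transgenic kidneys (-0.15 ± 0.12, SE; 0.00 without control 3). Pam16, a regulator of the motor, was at 58.1, 51.0 and 51.9 CPM and at 64.0, 59.7 and 57.0 (0.17 ± 0.09, SE; adjusted p = 0.997, edgeR). Oxa1l, the insertase for the inner membrane (0.13), and Immp1l, an inner membrane peptidase (-0.31), were the other genes taken by p, and Immp1l was 0.00 without control 3.

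For 12 genes of outer membrane sorting, intermembrane space and cristae, 6 lay above and 6 below 0, with a median of 0.01; without control 3 these were 10 above 0 and 0.07. Those with the smallest p were Mtx1, of the outer membrane sorting machinery (0.14), Romo1 (0.10), and the cristae genes Chchd3 (-0.16) and Immt (-0.10). Phb2, a prohibitin, was the gene of this list without overlap, where 2.96% of all genes were higher without overlap. It read 257, 260 and 256 CPM in controls and 261, 275 and 275 in transgenic kidneys (0.07 ± 0.07, SE). Phb2 is named after its values were seen. Of 9 protease genes 4 lay above and 5 below 0. Yme1l1, an inner membrane protease, read 51.0, 44.2 and 68.1 CPM in controls and 39.6, 43.9 and 47.4 in transgenic kidneys (-0.32 ± 0.16; -0.12 without control 3). The other named proteases were Htra2 (-0.26; 0.00 without control 3), Clpp (0.09) and Oma1 (0.12).

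Among 19 other carriers, channels and transporters 8 lay above and 11 below 0, with a median of -0.03; without control 3 10 lay above 0, with a median of 0.01. Mtch1, a carrier-like protein of the outer membrane, was lower without overlap, at 258, 268 and 255 CPM in controls and 225, 252 and 251 in transgenic kidneys (-0.10 ± 0.08, SE). Its lowest control and highest transgenic kidney were 254.9 and 251.6 CPM. Over all genes 3.02% were lower without overlap. Ucp2, an uncoupling protein homologue, read 113, 139 and 80.02 CPM in controls and 143, 107 and 125 in transgenic kidneys (0.17 ± 0.19; -0.02 without control 3). Ghitm (-0.16) and Abcb10 (0.08) were the other genes taken by p. No mitochondrially encoded gene was among the listed rows.

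Regulators of mitochondrial biogenesis control many nuclear genes of mitochondria. Of 8 listed, 3 lay above and 5 below 0, and 4 above without control 3. Ppargc1a, a coactivator that drives this programme, stood at 41.7, 38.6 and 48.1 CPM in controls and at 33.6, 39.1 and 38.6 in transgenic kidneys (-0.21 ± 0.11, SE; adjusted p = 0.997, edgeR). The groups overlapped through control 2 and transgenic kidney 2. Esrra, which encodes the estrogen-related receptor α, read 231, 238 and 239 CPM and then 227, 218 and 217, lower without overlap (-0.10 ± 0.07, SE). Polrmt, the mitochondrial RNA polymerase, read 47.3, 52.2 and 39.9 CPM and then 54.8, 54.1 and 54.1, higher without overlap (0.23 ± 0.11, SE; adjusted p = 0.997, edgeR). Without control 3 their log2 fold changes were -0.09 and 0.12. Over all genes 3.02% were lower and 2.96% higher without overlap. Ppara, the nuclear receptor for fatty acids, had a difference of 0.13, and Tfam, the mitochondrial DNA packaging factor, one of -0.02.

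Promoters were read for the elements of such regulators, as a description of the sequences only. RefSeq promoter windows on GRCm38.p6, 250 bases before to 50 after the gene start, were matched for 42 of the 50 genes. On either strand, CCGGAAGT, an element of ETS factors such as GABP, was in 6 of 42 windows (14.3%), in 10.1% of the 5816 windows of listed genes and in 4.0% of all 27025 windows. GCATGCGC, the core of the NRF1 element, was in 1 (2.38%, beside 5.90% of listed genes), AAGATGGC of YY1 in 2 (4.76%, beside 5.59%), and TCAAGGTCA of the estrogen-related receptors in 1 (2.38%, beside 0.292%). The NRF1 match was in Timm13 and the YY1 matches in Slc25a3 and Timm50, whose stretches are not printed. The stretches that hold the ETS element and the estrogen-related receptor element follow, 30 bases each. They are written 5′ to 3′ on the strand of the gene, with the match in capitals, read as given or as its reverse complement.
Slc25a20, chr9:108662046-108662075, + strand: gaggagggcagCCGGAAGTagacttcaggg
Timm10, chr2:84827026-84827055, + strand: tagacttccttCCGGAAGTgacccacgtgc
Timm10b, chr7:105640465-105640494, + strand: gagtagtgagagtttACTTCCGGggcgact
Timm23, chr14:32201921-32201950, - strand: tcgcgcttcccACTTCCGGgccgcacacag
Timmdc1, chr16:38522653-38522682, - strand: tccgagagcttCCGGAAGTgagccggctgg
Timmdc1, chr16:38522790-38522819, - strand: gccgccaactcACTTCCGGggctcgactga
Tomm70a, chr16:57121623-57121652, + strand: gccttctgaccCCGGAAGTggttctcccct
Timm8b, chr9:50603795-50603824, + strand: tttcgagggcTCAAGGTCActctacaaccc

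The 6 genes with the ETS element had log2 fold changes from -0.21 in Tomm70a to 0.12 in Timm10b, and those of Slc25a20, Timm10, Timm23 and Timmdc1 were 0.04, 0.07, -0.01 and 0.03. They lay on both sides of 0, like the other carrier and import genes. Timm8b, with the estrogen-related receptor element, had a difference of -0.03 ± 0.16 (SE). A match to these letters is not a measured binding site.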

How the data were processed

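RNA of 3 transgenic and 3 control kidney samples was sequenced, and the genome build was mm10, per the submitters' processing notes. Neither aligner nor counting program is given in the sources used here. A single table of 7373 genes was deposited. Per the file headers a gene was kept where at least 2 of 6 samples had an NRPKM between 5.0 and 84233.281. Its raw columns hold estimated counts and its normalized columns log2 values, per the file headers and the values. The deposited log2 values were used for 1 alternative. Another 12 of the 24 per-sample columns were left unused because no sample here bears their names.

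Estimated counts were rounded and fitted with edgeR (version 4.0.16; R 4.3.3), using filterByExpr, TMM, the quasi-likelihood test (two-sided) and Benjamini-Hochberg adjustment at 0.05. The fit used the 7195 genes above 0 in control 3, because the zeros there lower the prior degrees of freedom (2.40 against 4.44); fitting all listed rows was an alternative. The SE of a log2 fold change is its size over the square root of F. Libraries held 23.5 to 47.6 M estimated counts. The biological coefficient of variation, as edgeR names it, was 0.133 and rests on the spread between libraries, which may be technical. Duplicate libraries were looked for and none was found (chi-square per degree of freedom 23.3 to 152). The scripts were tested on simulated data. Lengths and GC content came from the longest coding transcript of a GENCODE annotation, known for 99.1% of rows, and positions from RefSeq (GRCm38.p6).

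The members and lists were chosen with earlier results of these data known. Named members were, per role, the 2 highest per kb, up to 6 in each direction by smallest p, and those of largest and smallest control spread. Genes without overlap, and the 2 list genes with the smallest p in each direction, completed the rule. Others were chosen after their values were seen, to describe each role. Alternatives were other size factors and filters, DESeq2 (version 1.42.0), limma (version 3.58.1) voom with array weights, limma on the log2 values, all rows, a replicate block, a looser threshold and each library left out. A GC and length correction was added after seeing the data. The result of 1 marker list is not reported here.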

Additional observations from a re-analysis of the deposited data

How the results depend on the processing

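No member passed an adjusted p of 0.05 under any of the 15 other fits, or at 0.1 in the edgeR fit. At an unadjusted p under 0.05 the count was 0 to 4, highest without control 2 (Slc25a22, Tomm20, Slc25a16 and Tomm70a). In that fit 597 of all 7194 genes were at this level. The median log2 fold change of the members stayed between -0.01 and 0.02. With the replicate block it was 0.01, with 0 calls and 1 gene (Slc25a16) under an unadjusted p of 0.05, beside 176 of all 7194 genes. Same-numbered kidneys had correlations of 0.0047, 0.019 and 0.34, and differently numbered ones ran from -0.42 to 0.415. These values cannot show whether the replicate numbers pair the kidneys, so the block stands for a number only. Members without overlap between groups were 0 to 4 higher and 0 to 6 lower when 1 library was left out, most without control 2 (10 of 50 members together, where 24.6% of all genes do not overlap), and 1 lower (Timm50) with DESeq2-type size factors. Of the 95 list genes 0 to 1 were called with 1 library left out. The 1 was Hba-a2 without control 3, a fit that called 2 of all 7194 genes. Hba-a2 stood at 14.2, 12.7 and 0.26 CPM in controls and at 1.05, 2.06 and 1.24 in transgenic kidneys. The control left out was thus its lowest kidney. Hba-a1, at 231 to 557 CPM, overlapped between groups.

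Among the 26 named members 18 changed sign under at least 1 alternative, by no more than 0.15 past 0. With 1 library left out at a time the log2 fold change ran from -0.070 to 0.027 in Slc25a3, from -0.16 to 0.052 in Slc25a4, from -0.078 to 0.14 in Slc25a10, from -0.0062 to 0.039 in Slc25a11, from -0.079 to 0.061 in Slc25a39 and from -0.023 to 0.053 in Slc25a17. It ran from -0.0020 to 0.083 in Slc25a45, from -0.036 to 0.15 in Slc25a34, from -0.061 to 0.10 in Tomm6, from -0.047 to 0.15 in Tomm7, from -0.074 to 0.063 in Timm13 and from -0.18 to 0.15 in Timm8b. It also ran from -0.073 to 0.12 in Timm23, from -0.027 to 0.23 in Slc25a42, from -0.020 to 0.28 in Tomm34, from -0.069 to 0.30 in Slc25a33, from -0.024 to 0.15 in Timm10 and from -0.092 to 0.033 in Timm17a. With limma voom and array weights the sign turned in Slc25a10 (-0.041), Slc25a39 (-0.050), Slc25a45 (-0.0066), Tomm6 (-0.063), Timm8b (0.026), Timm23 (0.11) and Timm10 (-0.022). With the GC and length correction it turned in Slc25a3 (0.012), Slc25a10 (-0.0056), Slc25a11 (-0.0058), Slc25a39 (-0.050), Slc25a34 (-0.018), Timm23 (0.022) and Timm17a (0.027). Timm23 was 0.00090 in the limma fit of the deposited log2 values and 0.0016 with the replicate block. The cause of these turns was not tested. At this number of kidneys the intervals of 5 members reach past a 1.5-fold change.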
